A study of Mus musculus with 6 samples.

Results

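The Notch pathway genes examined here were 10 rows of the deposited E18.5 count table, chosen by gene symbol. They were the receptors Notch1, Notch2 and Notch3, the ligands Dll1, Dll3 and Jag1, the transcriptional effectors Hes1, Hes5 and Hey1, and the DNA-binding factor Rbpj. All 10 of them were found among the 17348 genes of the table, and all 10 passed the filter on low counts that left 13570 genes for testing. The table came from mRNA sequencing of embryonic mouse cortex at E18.5, with 3 libraries of Ybx1 conditional knockout (cKO) embryos and 3 of control (Ctrl) littermates. Ybx1 encodes an RNA-binding protein that reads the 5-methylcytosine mark on mRNA. In the study, cKO embryos carried Nestin-Cre and floxed Ybx1 alleles (Ybx1 fl/fl), so deletion was driven in neural precursors and their progeny and not in every cell of the tissue. The submitters label the control libraries WT, the study's methods call them wild type littermates, and elsewhere the study defines controls as Ybx1 fl/fl without Cre. Whether a library came from 1 embryo or from pooled embryos was not stated, so p-values measure the spread between these libraries. In bulk tissue, fewer cells of a type and less RNA per cell cannot be told apart.

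Notch signaling passes between touching cells. A Delta or Jagged ligand on one cell binds a Notch receptor on its neighbour, proteases then release the intracellular part of the receptor, and this fragment joins Rbpj on DNA and switches on the Hes and Hey repressors. In the developing cortex, Hes1 and Hes5 hold radial glia undifferentiated by repressing proneural genes, while cells that begin to differentiate raise Delta ligands and so keep signaling active in their neighbours. The same pathway works in blood vessels, where Notch3 is a receptor of mural cells and Hey1 and Jag1 are also expressed.

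Promoter sequence was available for 8 of the 10 genes in RefSeq (build GRCm38.p6), as windows of 300 bases, from 250 before to 50 after each annotated start. Hes1 and Hey1 had no entry and were not searched. Hes5 and Rbpj itself are shown because their windows held the core of the sequence that Rbpj recognises, TGGGAA on either strand, which was present in 25.6% of 32851 such windows. Both held it at least 2 times, as did 3.79% of all windows. The longer motif GTGGGAA, which contains the core, was found in the Hes5 window and in no other of the 8 genes, against 6.38% of all windows. Each sequence below has 30 bases, reads 5′ to 3′ on the strand of the gene (plus strand in each case), and has the core in capitals, as TTCCCA where it lies on the opposite strand.
Hes5, chr4:154960685-154960714, core beginning 226 bases before the start: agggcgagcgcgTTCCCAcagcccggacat
Hes5, chr4:154960829-154960858, core beginning 82 bases before the start: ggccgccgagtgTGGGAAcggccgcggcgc
Rbpj, chr5:53590185-53590214, core beginning 149 bases before a start: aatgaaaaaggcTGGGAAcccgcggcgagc
Rbpj, chr5:53590269-53590298: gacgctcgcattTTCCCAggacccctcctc
The second Rbpj match fell in the windows of both of its annotated starts, 65 and 205 bases upstream. The N-box CACNAG, a sequence to which Hes proteins bind, was found on either strand in the windows of Notch1, Notch2, Notch3 and Dll1 and in 42.5% of all windows. These matches describe the letters of the windows only.

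Estimated counts summed to between 15091951 and 16885451 per library. The targeted gene Ybx1 had 13950 to 22152 counts in the Ctrl libraries and 387 to 394 in the cKO libraries. Y-linked transcripts differed too, with 1422 to 1756 counts of Eif2s3y in Ctrl and 0 to 1 in cKO. Kdm5d had 856 to 1116 counts in Ctrl and 0 in cKO, and Ddx3y 714 to 1118 in Ctrl and 0 to 1 in cKO. By these transcripts the groups differed in sex, so that sex and the deletion cannot be told apart in any comparison below. Ctrl replicate 2 stood apart from the other 5 libraries. In it, genes in the top quartile of transcript length had a median deviation from their mean over all libraries that was -0.60 on the log2 scale relative to the bottom quartile. In the other libraries the same difference was between 0.060 and 0.25. Results are therefore given with and without that library. The tissue label was checked against neural markers. Neurod6, a factor of cortical projection neurons, had 11830 to 14749 counts per library and Sox2, a factor of neural progenitors, 887 to 1447, while each of 4 choroid plexus markers had at most 5. The 8 ganglionic eminence and interneuron markers summed to 393, 380 and 368 TPM in Ctrl and to 481, 319 and 420 TPM in cKO. The share of ventral tissue in each library was not tested.

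None of the 10 Notch pathway genes passed the adjusted threshold, and 1 of them, the ligand Dll3, was lower in cKO at an unadjusted p under 0.05. The test was the quasi-likelihood test of edgeR, adjusted by the Benjamini-Hochberg method over all 13570 genes, of which 0.0737% had an adjusted p under 0.05 and 6.62% an unadjusted p under 0.05 (3.49% lower and 3.14% higher in cKO). The smallest adjusted p of the 10 was 0.622, for Dll3. DESeq2 gave the same counts, 0 of 10 and 1 of 10. Of the 10 log2 fold changes (cKO over Ctrl), 5 were above and 5 below 0, and they ran from -0.46 to 0.29. Their median was 0.028, beside 0.0027 for all genes tested, and -0.055 without Ctrl replicate 2. Their median size was 0.22, beside 0.13. The normalized counts were separate between the groups for 1 of the 10, Dll3, against 14.3% of all genes tested. Normalized counts are the CPM values of edgeR, counts scaled to a common library total by TMM.

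**Figure D1:**
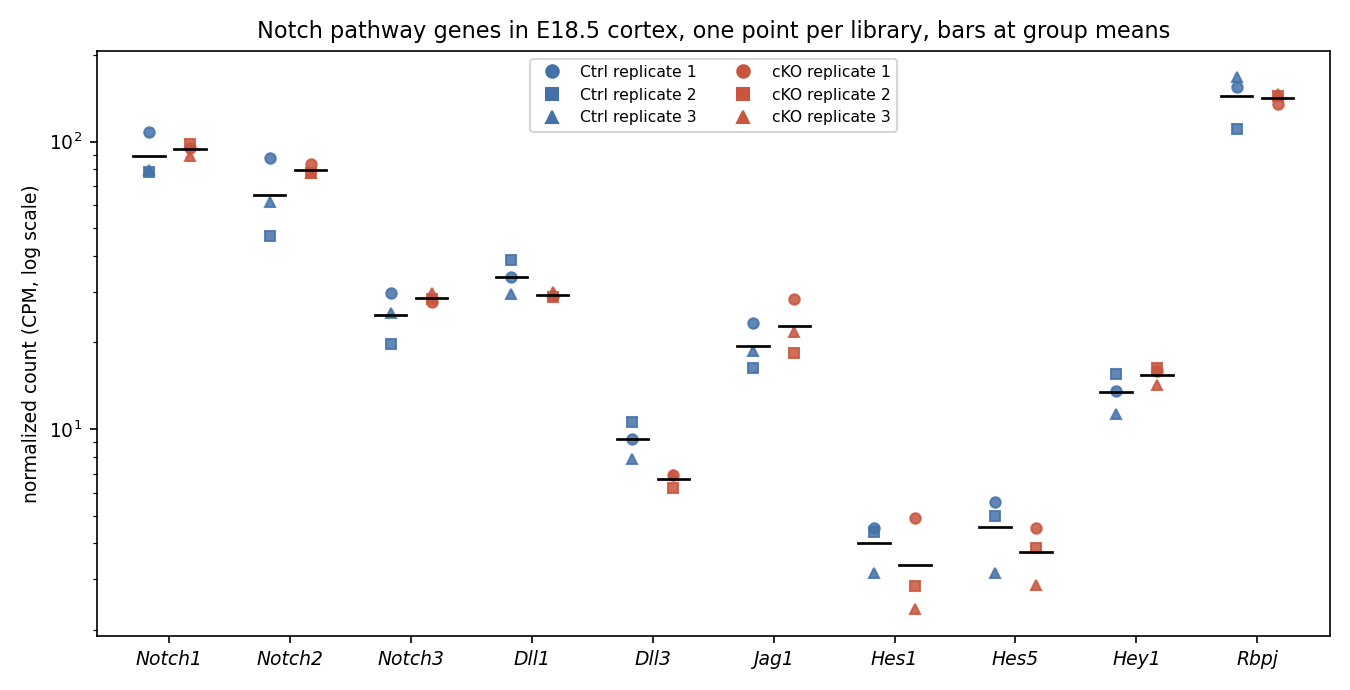
Normalized count (CPM, log axis) of each Notch pathway gene in every library, with Ctrl in blue and cKO in red, the replicate number as the marker shape and a bar at each group mean. The groups are separate for Dll3, at 7.88 to 10.5 CPM in Ctrl and 6.23 to 6.93 CPM in cKO, and overlap for the other 9 genes.

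The receptors were higher in cKO on average, and for each of them the difference was smaller than the SD of the Ctrl libraries. Notch1, the principal receptor of cortical progenitors (chr2:26457903-26516663, minus strand), was at 108, 78.3 and 79.8 CPM in Ctrl replicates 1 to 3 and at 94.97, 98.1 and 89.0 CPM in cKO replicates 1 to 3. Notch2 (chr3:98013527-98150361, plus strand) was at 87.5, 47.0 and 61.5 CPM in Ctrl and at 83.8, 77.8 and 77.6 CPM in cKO. In both genes Ctrl replicate 1 was the highest of all 6 libraries and lay above the 3 cKO values, while the other Ctrl libraries lay below them. Notch3 (chr17:32120820-32166852, minus strand) was at 29.8, 19.8 and 25.4 CPM in Ctrl and at 27.7, 28.3 and 29.7 CPM in cKO, again with Ctrl replicate 1 above and the other Ctrl libraries below all cKO values. The cKO libraries were close to each other, with an SD of 4.63, 3.54 and 1.04 CPM for Notch1, Notch2 and Notch3, where the Ctrl libraries had 16.96, 20.5 and 5.01 CPM (n = 3 per group). By edgeR's quasi-likelihood test, the log2 fold change was 0.081 for Notch1 (SE 0.14, adjusted p = 0.925), 0.29 for Notch2 (SE 0.20, adjusted p = 0.849) and 0.19 for Notch3 (SE 0.16, adjusted p = 0.861). The 95% intervals allow a change of Notch1 between 0.848-fold and 1.32-fold, of Notch2 between 0.894-fold and 1.67-fold and of Notch3 between 0.894-fold and 1.46-fold.

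These 3 receptors have the long transcripts of the group, at 9488, 10500 and 8016 bases in GENCODE M21. In Ctrl replicate 2 all of them were at their lowest level of the 6 libraries. Without that library the log2 fold changes were -0.0028 for Notch1, 0.097 for Notch2 and 0.047 for Notch3, with unadjusted p-values of 0.981, 0.469 and 0.665. Without Ctrl replicate 1, in contrast, Notch2 reached a log2 fold change of 0.56 with an unadjusted p of 0.0074 (adjusted p = 0.764).

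**Figure D2:**
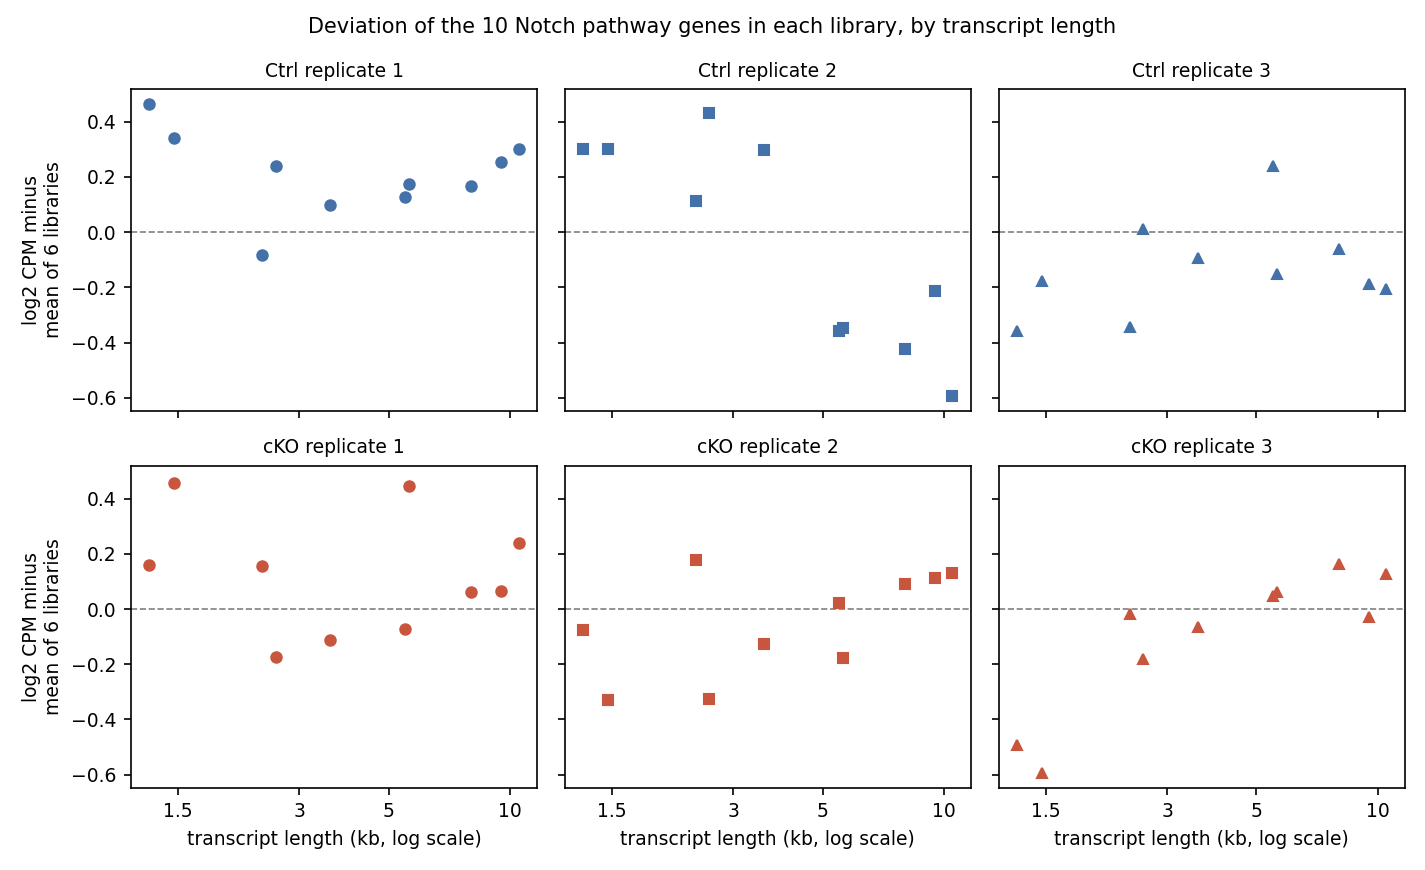
Deviation of each of the 10 genes from its mean over the 6 libraries (log2 CPM), by the length of its longest annotated transcript (kilobases, log axis), in 1 panel per library. In Ctrl replicate 2 the 5 genes with transcripts over 5 kb are all below 0 and the 5 shorter genes all above, a split that no other panel shows.

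Among the ligands, Dll3 was lower in every cKO library than in any Ctrl library. Dll3 is a divergent Delta family protein that is retained inside the cell and does not activate Notch on a neighbour, and it is expressed in cells that are starting neuronal differentiation. Its gene (chr7:28293553-28302238, minus strand) had 147, 180 and 115 counts in Ctrl replicates 1 to 3, or 9.22, 10.5 and 7.88 CPM. In the cKO libraries it had 112, 99 and 108 counts, or 6.93, 6.23 and 6.90 CPM. Ctrl replicate 3 was the closest to the cKO libraries and Ctrl replicate 2 the farthest from them. The log2 fold change was -0.46 (SE 0.17, unadjusted p = 0.0223, adjusted p = 0.622 in edgeR), a level of 0.725-fold with a 95% interval from 0.557-fold to 0.944-fold. The exact two-sided permutation test gave p = 0.1, the smallest that 3 against 3 libraries allow. Over 13 alternative analyses the log2 fold change of Dll3 stayed between -0.56 and -0.36 and the adjusted p between 0.269 and 0.9999, and the unadjusted p was under 0.05 in 9 of them. Without Ctrl replicate 2 the log2 fold change was -0.36 (unadjusted p = 0.0501), and with transcript length and GC content corrected for it was -0.37 (unadjusted p = 0.0275). The groups were also separate on the TPM and FPKM scales of the authors.

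Dll1, the main activating ligand of cortical progenitors and newborn neurons, overlapped between the groups. The gene (chr17:15367354-15376872, minus strand) was at 33.7, 38.6 and 29.5 CPM in Ctrl and at 29.1, 28.8 and 30.1 CPM in cKO. The log2 fold change was -0.21 (SE 0.13, adjusted p = 0.821), and the 95% interval ran from 0.708-fold to 1.05-fold. Only cKO replicate 3 lay above the lowest Ctrl library, replicate 3. Without that Ctrl library the log2 fold change was -0.30 (unadjusted p = 0.0354, adjusted p = 0.330), and without Ctrl replicate 2 it was -0.11. Jag1, a ligand found in cortical progenitors and vessel walls (chr2:137081456-137116644, minus strand), was at 23.5, 16.3 and 18.7 CPM in Ctrl and at 28.4, 18.4 and 21.7 CPM in cKO, a log2 fold change of 0.23 (SE 0.19, adjusted p = 0.862) and of 0.11 without Ctrl replicate 2. The range of Jag1 within each group was wider than the difference between the group means. Of the annotated exon bases of Dll1, 20.6% also belong to A930024N18Rik on the opposite strand, which was not analysed here. Whether counting used strand is not given in the sources used here.

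The effectors Hes1 and Hes5 were the least counted of the 10 genes, and their libraries differed more within groups than between them. Hes1, a repressor of proneural genes (chr16:30064384-30067796, plus strand), had 72, 75 and 46 counts in Ctrl and 79, 45 and 37 in cKO. Hes5, which acts beside it in radial glia (chr4:154960923-154962371, plus strand), had 89, 85 and 46 counts in Ctrl and 73, 61 and 45 in cKO. Both genes were lowest in replicate 3 of each group, and cKO replicate 1 held the highest normalized level of Hes1 of all 6 libraries, 4.89 CPM. Counting error alone amounts to 16.4% for the library with the fewest Hes1 counts and 14.9% for that with the fewest Hes5 counts. By edgeR's quasi-likelihood test, the log2 fold change was -0.26 for Hes1 (SE 0.30, adjusted p = 0.900) and -0.29 for Hes5 (SE 0.27, adjusted p = 0.870). A change between 0.525-fold and 1.33-fold for Hes1, and between 0.539-fold and 1.24-fold for Hes5, lies within the 95% intervals. These intervals include the spread between libraries, which for Hes1 in cKO (3.36 ± 1.35 CPM, SD, n = 3) was wider than the counting error. Leaving out cKO replicate 1 moved Hes1 to -0.63 (unadjusted p = 0.0439, adjusted p = 0.997), and leaving out cKO replicate 3 moved it to -0.060. Without Ctrl replicate 2 the values were -0.19 for Hes1 and -0.23 for Hes5. In Hes5, 31.8% of the annotated exon bases are shared with Gm20421 on the opposite strand, which was not analysed here.

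Hey1, an effector of the Hairy family prominent in vessels and also present in progenitors (chr3:8663359-8667256, minus strand), went the other way on average. It was at 13.5, 15.5 and 11.3 CPM in Ctrl and at 16.0, 16.2 and 14.2 CPM in cKO, with the highest Ctrl library above 1 of the 3 cKO libraries. The log2 fold change was 0.20 (SE 0.15, adjusted p = 0.857), within a 95% interval from 0.900-fold to 1.46-fold. Without Ctrl replicate 2 it was 0.31 (unadjusted p = 0.0431, adjusted p = 0.389), and with the length and GC correction 0.27 (unadjusted p = 0.0397, adjusted p = 0.362). In these 2 analyses 12.1% and 12.6% of all genes tested had an unadjusted p under 0.05. On the authors' TPM scale, where each library sums to the same total, Hey1 did not overlap between the groups, with 13.7 to 15.7 TPM in Ctrl and 17.6 to 20.2 TPM in cKO. The TPM values of the groups were separate for Dll3, Hey1 and Notch3, 3 of the 10 genes, against 21.6% of all genes tested, and the FPKM values were separate for Dll3 alone. Notch3 was barely separate, with 8.42 TPM in Ctrl replicate 1 against 8.43 TPM in cKO replicate 1.

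Rbpj, the factor through which all Notch receptors act on DNA (chr5:53466152-53657362, plus strand), had the smallest difference of the 10 genes. It was at 155, 111 and 167 CPM in Ctrl and at 135, 144 and 146 CPM in cKO, so that all cKO values lay between the lowest and the highest Ctrl library. The log2 fold change was -0.024 (SE 0.15, adjusted p = 0.983) with a 95% interval from 0.773-fold to 1.25-fold. The low Ctrl value came from replicate 2. Without it, Rbpj was at -0.18 (unadjusted p = 0.0433, adjusted p = 0.390).

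**Figure D3:**
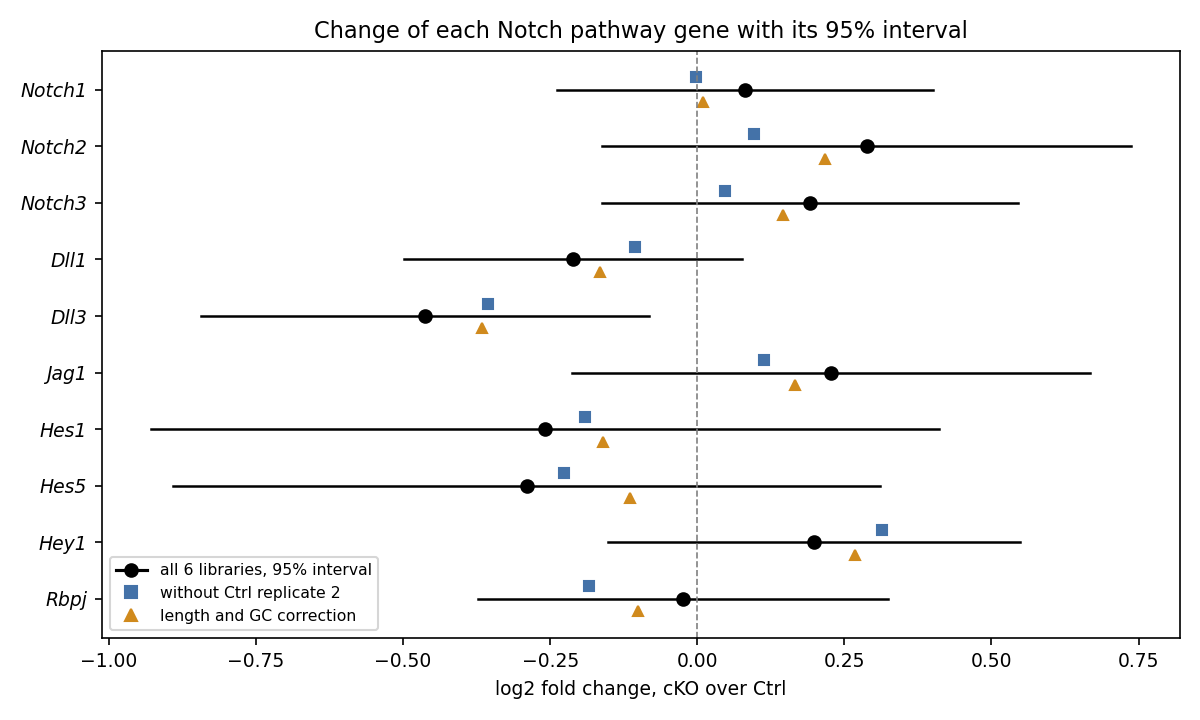
Log2 fold change of each gene, cKO over Ctrl, from edgeR's quasi-likelihood test (black points, with 95% intervals as lines), beside the value without Ctrl replicate 2 (blue squares) and the value after the length and GC correction (orange triangles). The interval of Dll3 lies below 0, and those of the other 9 genes include 0.

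Per transcript length, on the authors' TPM scale, Rbpj was the most abundant of the 10 mRNAs in both groups. Its level was 60.3 ± 17.01 TPM (SD, n = 3) in Ctrl and 64.0 ± 2.59 TPM in cKO, between 28.6% and 40.7% of the sum of the 10 genes in each library. In Ctrl it was followed by Dll1 at 22.3 ± 1.29 TPM, Notch1 at 20.7 ± 4.77 TPM, Hey1 at 14.99 ± 1.14 TPM and Notch2 at 13.8 ± 4.95 TPM. Dll3 at 10.5 ± 0.702 TPM, Hes5 at 9.32 ± 2.74 TPM, Jag1 at 7.94 ± 1.79 TPM, Hes1 at 7.59 ± 1.15 TPM and Notch3 at 6.94 ± 1.80 TPM were lower. In this order only the steps from Rbpj to Dll1 and from Notch1 to Hey1 had ranges that did not overlap, so neighbours from Hey1 downward did not differ beyond their spread. In cKO the level of Notch1 was 24.1 ± 1.10 TPM and that of Dll1 21.3 ± 0.545 TPM, and here Notch1 stood above Dll1 in every cKO library. The Ctrl order of these genes differed between libraries. Notch1 was at 25.9, 16.5 and 19.8 TPM and Dll1 at 22.8, 23.2 and 20.8 TPM in Ctrl replicates 1 to 3. Notch1 was thus above Dll1 in Ctrl replicate 1, and it was farthest below Dll1 in Ctrl replicate 2, the library in which long transcripts were low. Further steps without overlap in cKO were those from Rbpj to Notch1, from Dll1 to Hey1 and from Notch2 to Jag1. Dll3 went from the sixth place in Ctrl to the ninth in cKO, at 8.48 ± 0.536 TPM, although its cKO range overlapped those of both its neighbours in the order, Notch3 and Hes1. The FPKM values gave the same order of all 10 genes in both groups.

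Ratios between genes of the same class within 1 library do not depend on the scaling of that library. All 9 pairs within the receptors, ligands and effectors were compared, a choice made after the levels had been seen, and so they are given as a description. Dll1 was at 2.10, 2.14 and 2.15 times the TPM level of Dll3 in Ctrl replicates 1 to 3. The ratio was 2.42, 2.65 and 2.51 in cKO replicates 1 to 3, above every Ctrl library. Ctrl replicate 2 did not stand out in this ratio, whose Ctrl libraries had an SD of 0.0284. The ratio of Dll3 to Jag1 was 1.13, 1.80 and 1.19 in Ctrl and 0.696, 0.969 and 0.897 in cKO, also without overlap. The groups overlapped in the other 7 ratios, among them that of Notch1 to Notch2, with a mean of 1.56 ± 0.256 (SD, n = 3) in Ctrl and 1.31 ± 0.0778 in cKO, and that of Hes1 to Hes5, with 0.838 ± 0.116 and 0.774 ± 0.159. Of all pairs of tested genes with TPM values above 0, 14.6% had ratios that did not overlap between the groups, and the 2 such pairs here share Dll3.

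**Figure D4:**
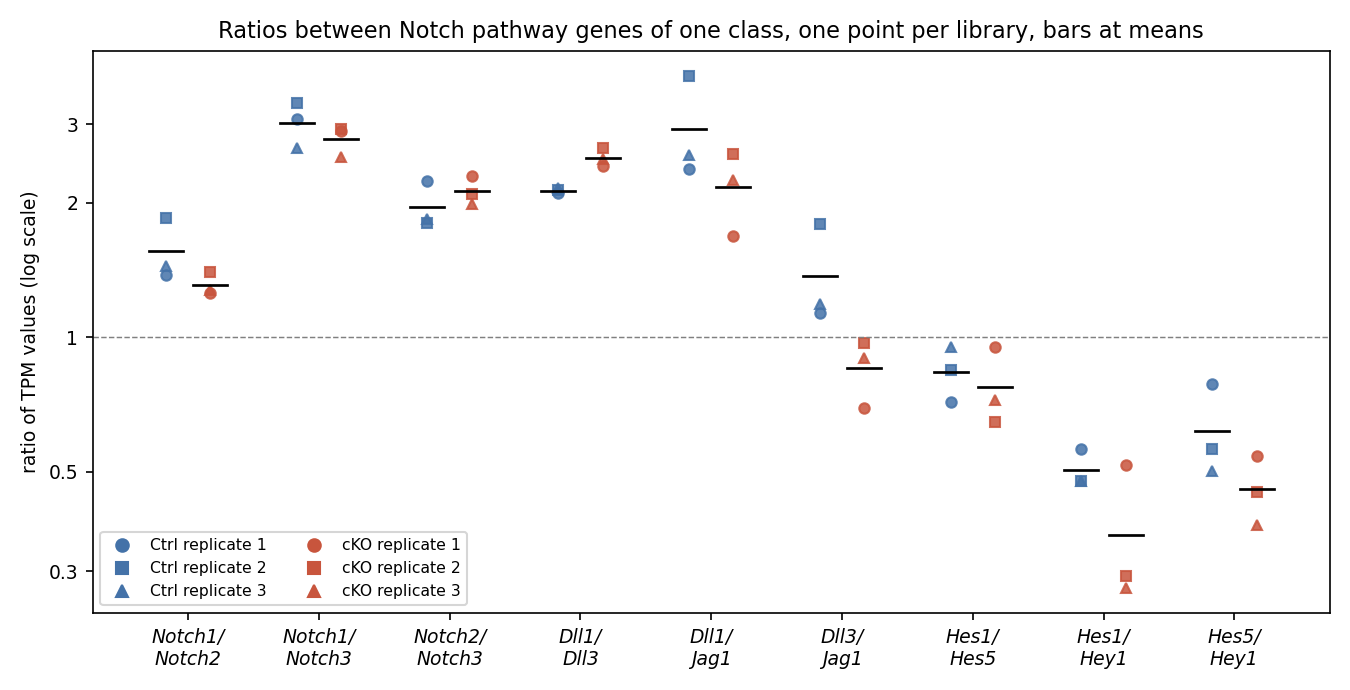
Ratio of the TPM values of 2 Notch pathway genes of a class (log axis) in each library, with Ctrl in blue, cKO in red, the replicate number as the marker shape and bars at the means. The ratio of Dll1 to Dll3 lies between 2.10 and 2.15 in Ctrl and between 2.42 and 2.65 in cKO, and the ratio of Dll3 to Jag1 is above 1 in every Ctrl library and below 1 in every cKO library.

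The rest of the pathway was read from a list of 46 other Notch genes, all of them in the table, of which 44 were tested. None passed the adjusted threshold in edgeR's quasi-likelihood test, and 3 had an unadjusted p under 0.05, 2 higher and 1 lower in cKO, beside 6.62% of all genes tested. These 3 are named by that threshold and are described by their values. Neurl1b, a ubiquitin ligase that promotes endocytosis of Notch ligands, was at 34.0, 34.3 and 34.9 CPM in Ctrl and at 39.7, 44.9 and 41.8 CPM in cKO, a log2 fold change of 0.29 (unadjusted p = 0.0193, adjusted p = 0.607). Its paralog Neurl1a had a log2 fold change of -0.54 (unadjusted p = 0.0493, adjusted p = 0.752), from 5.76 to 9.08 CPM in Ctrl and from 4.22 to 5.70 CPM in cKO. Numb, an inhibitor that promotes removal of the Notch receptor, was at 18.53 ± 1.32 CPM in Ctrl and at 23.2 ± 1.76 CPM in cKO (SD, n = 3), a log2 fold change of 0.33 (unadjusted p = 0.0294, adjusted p = 0.667). The groups did not overlap in these 3 of the 44 genes, against 14.3% of all genes tested. For Neurl1a the highest Ctrl value came from replicate 2, and without it the log2 fold change was -0.28 (unadjusted p = 0.182). Without that library Neurl1b was at 0.29 and Numb at 0.28, with unadjusted p-values of 0.0102 and 0.0325.

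By role and with all 6 libraries, none of the 10 tested genes for proteases that cut the receptor (among them Adam10 and Ncstn), of the 5 for enzymes that add sugars to it, of the 6 for co-activators and of the 4 for co-repressors of Rbpj reached an unadjusted p of 0.05. Their log2 fold changes lay between -0.19 and 0.22, with a class median between -0.038 and 0.027. The remaining receptor and ligands, Notch4, Dll4 and Jag2, were at 0.21, 0.14 and 0.12 with adjusted p-values of at least 0.859. Nrarp, a feedback inhibitor induced by Notch signaling, was at 25.3, 25.2 and 17.1 CPM in Ctrl and at 23.0, 24.9 and 22.7 CPM in cKO (log2 fold change 0.060, adjusted p = 0.954). Over all 44 genes, 22 were above and 22 below 0, with a median of 0.00017. Without Ctrl replicate 2 the median was 0.0073. In that setting 7 of the other pathway genes had an unadjusted p under 0.05 in edgeR, beside 12.1% of all genes tested.

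Proneural genes that Hes factors repress were read beside the effectors. Of the 6 listed, 5 were tested, and none reached an unadjusted p of 0.05 with all 6 libraries. Neurog2, which drives glutamatergic neurogenesis in the cortex, had a log2 fold change of 0.0099 (adjusted p = 0.991) and Eomes, a factor of intermediate progenitors, of 0.050 (adjusted p = 0.947). Neurod1 and Neurod4, factors of neuronal differentiation, were at 0.15 and -0.23, and Neurog1 was too low to be tested, with 1 to 7 counts per library. Without Ctrl replicate 2, Neurod4 was at -0.57 (unadjusted p = 0.0257, adjusted p = 0.328 in edgeR). In that setting 12.1% of all genes tested had an unadjusted p under 0.05. Neurog2, Eomes and Neurod1 were then at -0.010, 0.0040 and 0.15.

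Markers of the cells that use Notch were summed per library on the TPM scale. The 9 radial glia markers summed to 1830 to 2522 TPM in Ctrl and 2008 to 2355 TPM in cKO, and 1 of them, Pax6, was higher in cKO at an unadjusted p of 0.0204 (log2 fold change 0.31, adjusted p = 0.608). Of the 9 markers, 5 had a log2 fold change above 0 and 4 below, with a median of 0.0042. Hopx, Fabp7 and Sox2 were at -0.33, -0.24 and -0.13. Without Ctrl replicate 2, Pax6 was at 0.37 (unadjusted p = 0.0023, adjusted p = 0.123 in edgeR). In the same setting Hopx, Fabp7 and Sox2 were at -0.020, -0.17 and -0.028. The 5 intermediate progenitor markers summed to 265 to 333 TPM in Ctrl and 301 to 346 TPM in cKO. Both ranges overlapped between the groups. The 6 oligodendrocyte precursor markers summed to 60.4, 53.9 and 42.9 TPM in Ctrl and to 68.1, 39.9 and 41.8 TPM in cKO. The libraries with the 3 highest sums were also those with the 3 highest levels of Hes1. This match was not particular to that list. On the CPM scale the same 3 libraries were also the highest for the astrocyte sum and for the radial glia markers Fabp7 and Sox2. For the sum of all 9 radial glia markers they were not. The part of these cell types in the spread of Hes1 was not tested.

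Among vascular markers, the endothelial sum was separate between the groups and the pericyte sum was not. The 8 endothelial markers summed to 196, 215 and 210 TPM in Ctrl and to 284, 226 and 231 TPM in cKO, without overlap. On the CPM scale their sums were barely separate, with 285.1 CPM in Ctrl replicate 3 against 285.8 CPM in cKO replicate 2. For single genes, TPM values were separate in 21.6% of those tested. The log2 fold changes of the 8 endothelial markers had a median of 0.18, with 7 of 8 above 0 and none past the adjusted threshold. Only Cdh5 had an unadjusted p under 0.05 in edgeR (log2 fold change 0.41, unadjusted p = 0.00988, adjusted p = 0.514). The 6 pericyte markers summed to 119, 112 and 159 TPM in Ctrl and to 174, 145 and 166 TPM in cKO, which overlapped, and the median of their log2 fold changes was 0.22, with none past the adjusted threshold. Of these, only Pdgfrb had an unadjusted p under 0.05 (log2 fold change 0.27, unadjusted p = 0.0448, adjusted p = 0.731 in edgeR). The members named above for vessels, Notch3, Jag1 and Hey1, had log2 fold changes of 0.19, 0.23 and 0.20, and the endothelial Notch4 and Dll4 of 0.21 and 0.14. These are not a full list of pathway genes expressed in vessels. The other members, among them Notch1 at 0.081 and Hes1 at -0.26, ran from -0.46 to 0.29. The other Hey factors listed, Hey2 and Heyl, were at 0.079 and 0.036. Without Ctrl replicate 2, Notch3, Jag1 and Hey1 were at 0.047, 0.11 and 0.31. In the same setting Notch4 and Dll4 were at 0.38 and 0.15, and Hey2 and Heyl at 0.12 and -0.018. No marker of either list was at 0 in all libraries, and cKO replicate 1, the library with the highest Jag1, had the highest TPM sum of both lists. On the CPM scale it was highest for endothelial markers but not for pericyte markers, with 258 CPM against 262 CPM in cKO replicate 3. Microglia markers, 5 in number, summed to 28.2 to 31.5 TPM in Ctrl and 33.7 to 39.1 TPM in cKO, but overlapped on the CPM scale. The part of vascular and microglia markers in the values of the Notch pathway genes was not tested.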

How the data were processed

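The estimated counts, TPM values and FPKM values deposited by the authors were given per gene and library (18 columns used, and 6 columns of the authors' group means not used). The counts were not scaled between libraries. The submitters' processing notes name HISAT2 2.2.1, Bowtie2 2.4.5 and RSEM 1.3.1 and the build GRCm38, without their roles. Annotation and strandedness are not given in the sources used here.

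Groups and replicate numbers came from the sample titles. Counts were rounded, filtered with filterByExpr, scaled by TMM and compared with edgeR 4.0.16 (quasi-likelihood test, R 4.3.3). An SE is the log2 fold change over the square root of F. Permutation tests were exact and two-sided (scipy 1.17.1). The biological coefficient of variation was 0.147. Transcript length and GC content came from the longest GENCODE M21 transcript, found for 96.7% of genes, and the correction removed a smooth trend on both (mgcv 1.9.3). Replicates were checked for duplicates (chi-square per degree of freedom 3.52 to 65.4, none found). The edgeR fit was also run on simulated counts with a fixed dispersion. These held no outlying library and no trend with transcript length, so that run does not cover a library such as Ctrl replicate 2. Alternatives were DESeq2 1.42.0, RLE factors, other filters, each library left out, the length and GC correction and the replicate block. The comparison of ratios, and of overlap on the TPM and FPKM scales, was chosen after seeing the data.

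The genes, the pathway and marker lists and the tests were chosen with earlier results of these data known. All 10 members are named, with Ybx1, other pathway genes at an unadjusted p under 0.05 and the proneural genes, except for items that are not reported here. Other genes named (Notch4, Dll4, Jag2, Nrarp, Adam10, Ncstn, Hes3, Hes6, Hes7, Hey2, Heyl, Pax6, Hopx, Fabp7, Sox2, Neurod6, Cdh5, Pdgfrb, Eif2s3y, Kdm5d, Ddx3y) were chosen after their values were seen.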

Additional observations from a re-analysis of the deposited data

How the results depend on the processing

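No Notch pathway gene passed the adjusted threshold in any of the 13 alternative analyses, where the adjusted p-values of the 10 genes ran from 0.269 to 0.9999. Of 130 values of the log2 fold change under these alternatives, 126 kept their direction, and the 4 that did not each left out 1 library. Notch1 ranged from -0.0028 (without Ctrl replicate 2) to 0.25 and Rbpj from -0.18 to 0.095 with 1 library left out, Rbpj being above 0 without Ctrl replicate 1 (0.030), Ctrl replicate 3 (0.095) or cKO replicate 1 (0.011). The share of all genes with an unadjusted p under 0.05 was 6.62%, and it moved to 12.6% with the length and GC correction, 14.2% with that correction and the replicate block, 12.1% without Ctrl replicate 2, 14% without Ctrl replicate 3 and from 3.57% to 5.48% without each of the other libraries. The number of Notch pathway genes with an unadjusted p under 0.05, 1 with all libraries, was 2 with the length and GC correction, 3 with that correction and the replicate block, and from 0 to 2 with 1 library left out (2 without Ctrl replicate 2, Ctrl replicate 3 or cKO replicate 1, and 0 without cKO replicate 2 or 3). For the other pathway genes it was 6, 7 and from 0 to 7 (7 without Ctrl replicate 2, 1 without cKO replicate 2 and 0 without cKO replicate 3), beside 3 of 44. Among all genes, 10 passed the adjusted threshold, 98 with DESeq2, 152 with the length and GC correction, 148 with that and the replicate block, and from 8 to 122 with 1 library left out (122 without Ctrl replicate 2 and 19 without Ctrl replicate 3). The causes of these changes were not tested.

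With the replicate number as a block alone, 11 genes passed and Dll3 had an unadjusted p of 0.0349 (adjusted p = 0.602). Same-numbered libraries deviated from their group means with correlations of 0.088, 0.062 and 0.23 across genes. Each library correlated best with its own number, but for Ctrl replicate 2 this was nearly a tie, as its correlation with cKO replicate 1 was 0.059. The pattern is a weak hint from the data and not part of the design, and the labels give no shared litter or batch for a number. The median of the 10 genes was -0.045 with the length and GC correction and -0.055 without Ctrl replicate 2, beside 0.028. Counting error was largest for Hes1, Hes5 and Dll3. TPM values separated the groups in 3 members and CPM values in 1.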

Other observations

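Hes6, a Hes family member that antagonises Hes1 and promotes neuronal differentiation, varied widely within both groups. It was at 24.5, 73.0 and 43.6 CPM in Ctrl replicates 1 to 3 and at 19.4, 42.2 and 40.6 CPM in cKO replicates 1 to 3, with replicate 1 the lowest library of both groups. The log2 fold change was -0.47 (SE 0.39, adjusted p = 0.863 in edgeR) and 0.0020 without Ctrl replicate 2.

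Hes3 and Hes7 of the same family were too low to be tested, with 0 to 2 and 2 to 7 counts per library.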
